A study of Rattus norvegicus with 17 samples.

Results

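Interferon-stimulated genes were followed in the meibomian gland (MG) of rats, as a list of 44 genes given by symbol. Of these, 42 have a row in the deposited table of 17251 genes, and Isg15 and Rtp4 were not analysed here. The MG is the oil gland of the eyelid. RNA of the MG was sequenced from 17 female Sprague-Dawley rats aged 10 to 12 weeks, in 4 groups. Unexposed rats were 4 of the Control WT and 5 of the Control P1.hMR group, and exposed rats were 3 of the UVB WT and 5 of the UVB P1.hMR group. WT rats carry no transgene. P1.hMR rats carry the human mineralocorticoid receptor under the proximal P1 promoter of its own gene, which is active in every tissue that makes the receptor, so the transgene was not limited to the MG. The UVB groups had the shaved upper eyelids irradiated on each of 5 days. The sources used here do not say whether control eyelids were shaved, so shaving and UVB cannot be told apart. The human transcript, listed as NR3C2, had 0 TPM in every WT rat, lay between 6.77 and 9.31 TPM in Control P1.hMR rats and between 5.31 and 8.93 TPM in UVB P1.hMR rats.

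Interferons are secreted proteins that warn cells of virus and damage. Type I interferons bind a receptor of the Ifnar1 and Ifnar2 chains, whose Jak1 and Tyk2 kinases activate Stat2. With Irf9 it forms part of a complex that binds the interferon-stimulated response element (ISRE) in front of target genes. Interferon gamma acts mainly through a second motif, the gamma-activated site (GAS), and through Irf1, which it induces. The products of the target genes sense foreign nucleic acid, block viral growth, tag proteins with ubiquitin-like modifiers, or prepare peptides for display on MHC class I. In skin and at the ocular surface the same genes are known to respond to infection and to DNA damage.

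Many members share promoter letters. The list holds genes known to respond to interferon, so a high share of ISRE matches was likely from that choice. RefSeq promoter windows of 300 bases (250 before and 50 after the start site, build GRCr8) were matched by gene ID for 32 of the 44 members. The ISRE core, written GAAANNGAAA or TTTCNNTTTC on the other strand, was found in 21 of the 32 windows (65.62%), against 3.92% of all 33469 windows. The GAS letters TTCNNNGAA, which read the same on both strands, were found in 7 of the 32 windows (21.88%), against 8.874% of all windows. With a gap of 3 bases between the GAAA runs in place of 2, 3 of the 32 windows (9.375%) and 2.859% of all windows held a match. Of the 26 ISRE matches, 18 began in the 100 bases before the start site, and 1 of the 26 overlapped a GAS match. A match is a description of the letters, not a shown binding site.

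The windows of 4 members are shown. These have the highest mean TPM among the members followed in every comparison whose window holds the ISRE core. The windows are written 5′ to 3′ on the strand of the gene, with the ISRE core in capitals. The strands and positions in GRCr8 are chr1:205799974-205800273 (minus) for Irf7, chr20:4668494-4668793 (minus) for Tap1, chr2:234005477-234005776 (plus) for Gbp2 and chr20:4656982-4657281 (minus) for Psmb8.
Irf7: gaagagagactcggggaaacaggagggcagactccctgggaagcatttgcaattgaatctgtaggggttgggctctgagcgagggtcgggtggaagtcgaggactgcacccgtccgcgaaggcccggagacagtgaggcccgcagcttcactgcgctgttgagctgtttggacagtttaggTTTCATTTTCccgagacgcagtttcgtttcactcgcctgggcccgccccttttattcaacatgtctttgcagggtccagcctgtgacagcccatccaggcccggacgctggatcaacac
Tap1: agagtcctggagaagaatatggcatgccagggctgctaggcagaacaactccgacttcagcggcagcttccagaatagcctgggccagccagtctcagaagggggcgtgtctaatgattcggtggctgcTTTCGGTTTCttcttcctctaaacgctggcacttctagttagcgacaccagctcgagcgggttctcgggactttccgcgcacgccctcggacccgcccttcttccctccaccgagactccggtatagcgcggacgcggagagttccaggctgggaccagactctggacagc
Gbp2: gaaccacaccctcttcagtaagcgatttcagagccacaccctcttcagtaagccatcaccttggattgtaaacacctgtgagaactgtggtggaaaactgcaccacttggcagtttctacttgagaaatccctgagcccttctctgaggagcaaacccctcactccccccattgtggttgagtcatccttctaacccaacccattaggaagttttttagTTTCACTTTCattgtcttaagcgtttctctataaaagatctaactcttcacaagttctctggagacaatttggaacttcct
Psmb8: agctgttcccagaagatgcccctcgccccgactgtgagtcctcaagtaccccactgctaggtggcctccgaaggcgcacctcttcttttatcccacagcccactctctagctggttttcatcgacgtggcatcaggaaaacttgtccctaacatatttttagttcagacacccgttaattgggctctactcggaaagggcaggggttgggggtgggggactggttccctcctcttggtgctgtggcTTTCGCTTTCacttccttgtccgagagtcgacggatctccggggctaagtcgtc

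Shorter stretches around the match are given for Irf1, Rsad2, Gbp4 and Ifit3, whose values after UVB are described below. These 4 were picked after their values were seen. Capitals mark the GAS letters in Irf1 and the ISRE core in the other stretches. They lie at chr10:38417783-38417811 (plus), chr6:48788248-48788277 (minus), chr2:233978466-233978495 (plus) and chr1:241527272-241527301 (plus), in that order.
Irf1: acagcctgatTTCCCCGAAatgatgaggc
Rsad2: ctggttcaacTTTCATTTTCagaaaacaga
Gbp4: agaagcagggTTTCGATTTCggttcccttt
Ifit3: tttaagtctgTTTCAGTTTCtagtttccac

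**Figure D1:**
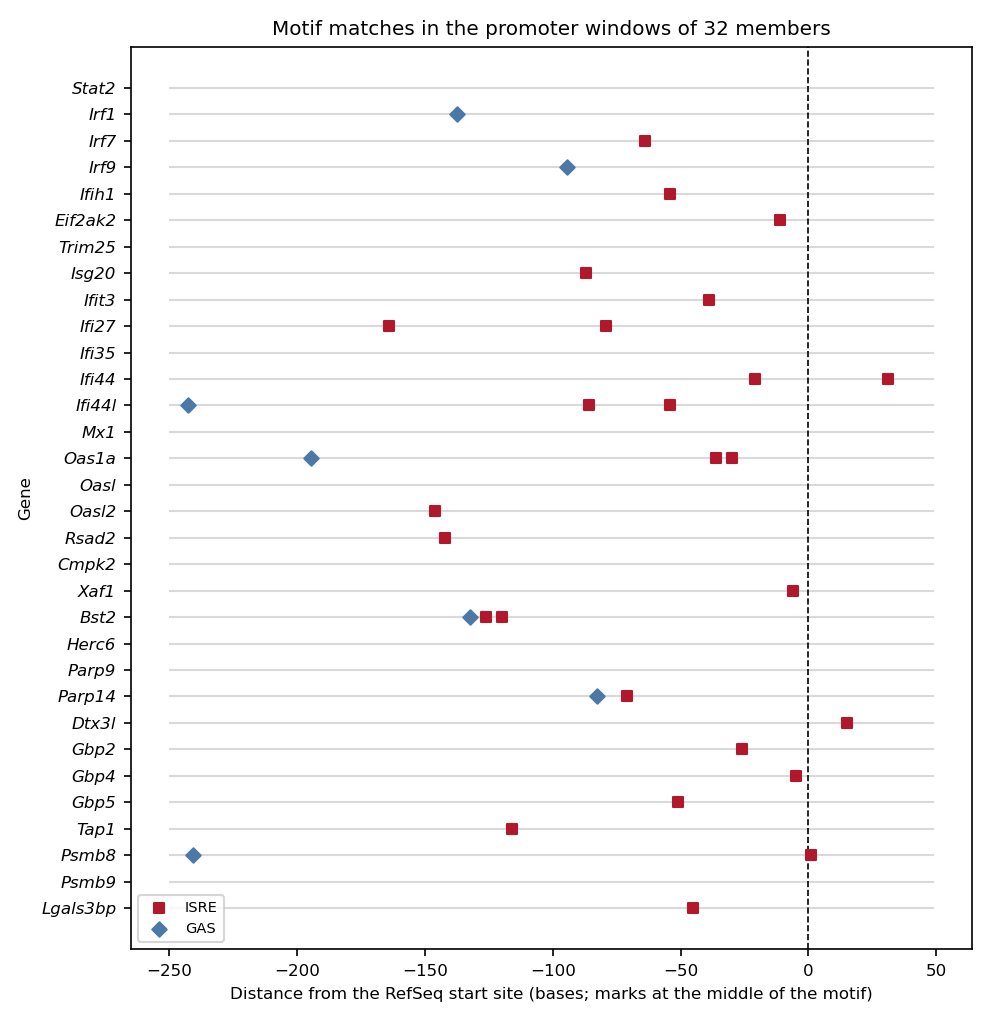
Position of ISRE matches (red squares) and GAS matches (blue diamonds) in the RefSeq promoter windows of 32 members, 1 line per gene, with the distance from the start site in bases on the horizontal axis. Most red squares lie in the 100 bases before the start site (18 of 26), and Irf1 has a GAS match and no ISRE match.

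The deposited values are TPM (each transcript's share of the library's RNA, corrected for transcript length), so levels of different genes can be set side by side but depth is not kept. Between 12372 and 12737 genes per rat reached 1 TPM. Differences were tested on log2(TPM + 1), which understates the change of genes at low TPM, in a limma model over the 13105 genes that reached 1 TPM in 3 or more rats. This filter kept 40 members. Ifit1 and Oas2 were left out by it, and 31 of the 40 reached 1 TPM in all 17 rats. A call needed an adjusted p (Benjamini-Hochberg) under 0.05 together with a log2 fold change of 0.5 or more in either direction. All adjusted p-values given are from limma with that adjustment over all genes tested. Since the tissue was sequenced in bulk, fewer cells of a type and less RNA per cell cannot be told apart. The labelled tissue carried its defining markers: the meibocyte genes, 9 in number and including the wax ester synthase Awat2, summed to between 15020.5 and 22819.7 TPM in every rat. Keratinocyte and skeletal muscle markers were also present, at 10257 to 15760 and 1416 to 3203 TPM.

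Levels spanned a wide range. The highest member was Ifi27, an interferon-induced mitochondrial protein, between 147 and 337 TPM, followed by Irf9, the DNA-binding partner of Stat2, between 42.4 and 59.5 TPM, and Bst2, a membrane tether that holds budding viruses, between 35.02 and 53.4 TPM. The ranges of Irf9 and Bst2 overlapped. At the other end Oas2, a synthase of the 2-5A messenger that activates RNase L, never passed 0.37 TPM and was listed at 0 in 2 rats.

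**Figure D2:**
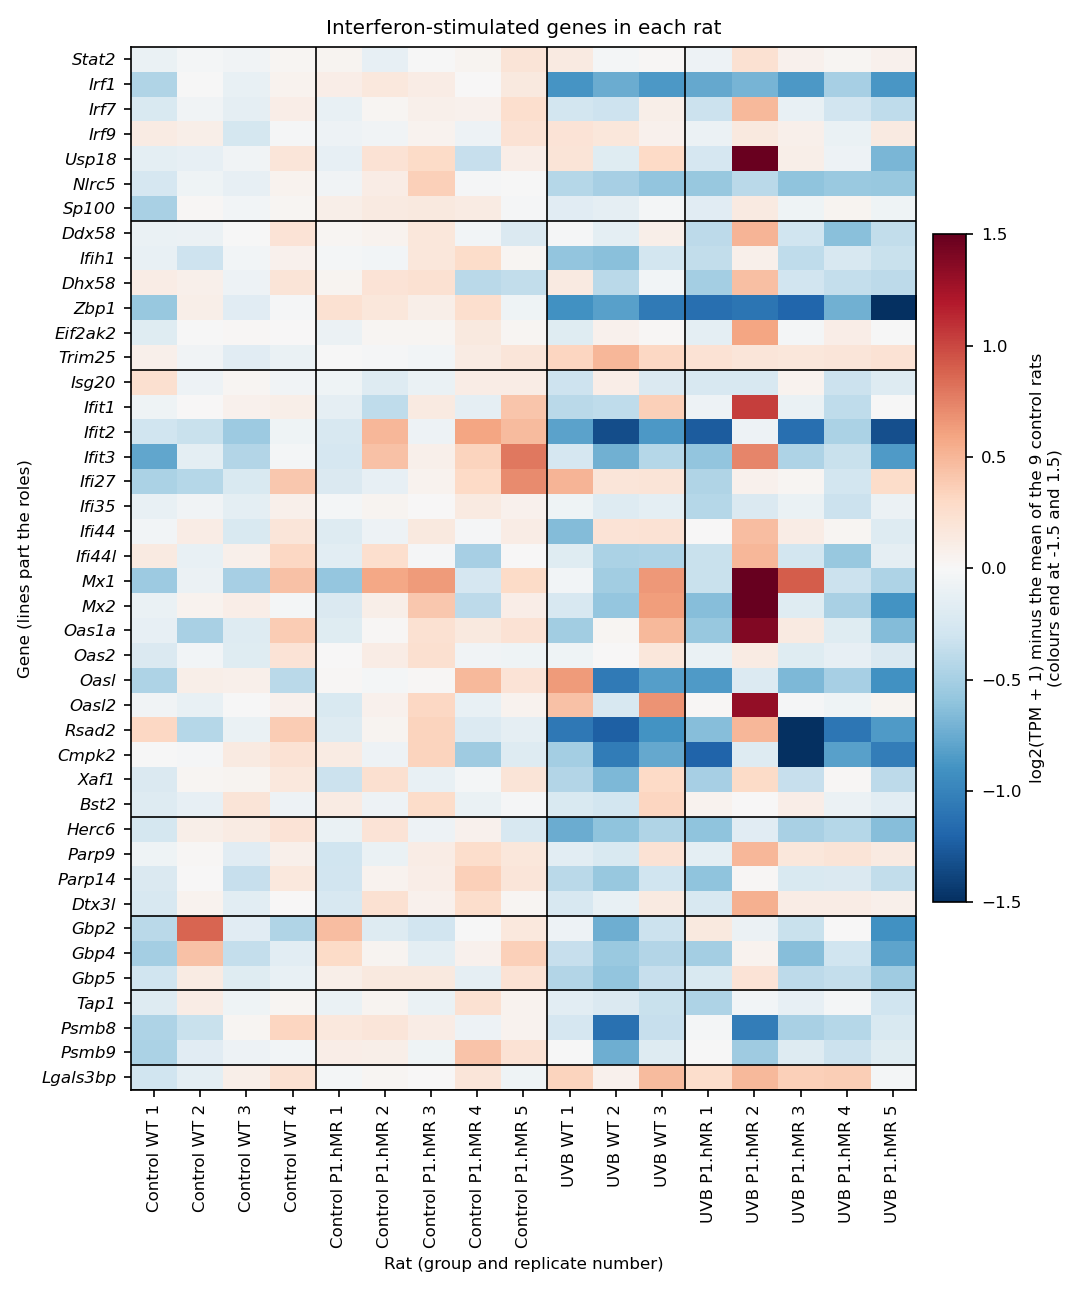
Level of the 42 listed members in each of the 17 rats as log2(TPM + 1) minus the mean of the 9 control rats, with genes in rows grouped by role and rats in columns grouped by treatment and genotype (red higher, blue lower). Irf1, Zbp1, Nlrc5, Rsad2 and Cmpk2 are blue across the UVB rats, except that Rsad2 is red in UVB P1.hMR rat 2, whose column is red for Usp18, Mx1, Mx2, Oas1a and Oasl2.

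One library was set apart by the rule of the list and is described before the group results. The list was made with earlier results of these data known. UVB P1.hMR rat 2 had the highest value of its 5-rat group for 31 of the 42 members (73.8%), against 18.0% of all genes tested. For 17 members it was the highest of all 17 rats (6.08% of all genes tested). These were the regulators Stat2, Irf7 and Usp18, the sensors Ddx58, Dhx58 and Eif2ak2, the effectors Ifit1, Ifi44, Ifi44l, Mx1, Mx2, Oas1a, Oasl2 and Rsad2, the partners Parp9 and Dtx3l, and Lgals3bp.

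The distance of this rat from its group differed between members. Mx2, a dynamin-like antiviral GTPase, stood at 10.5 TPM in rat 2 and at 1.03 ± 0.42 TPM (SD, n = 4) in the other UVB P1.hMR rats, a ratio of 10.2. Usp18, the protease that removes Isg15 from proteins and dampens receptor signalling, stood at 5.88 TPM against 1.13 ± 0.46 TPM (SD, n = 4). Oas1a, a 2-5A synthase, stood at 6.59 TPM against 1.38 ± 0.61 TPM (SD, n = 4). In each of these genes rat 2 lay above all 16 other rats. Its difference from the mean of the other 4 was at least 1 on the log2(TPM + 1) scale for 8 of 42 members (19.0%), namely Mx2, Usp18, Oas1a, Mx1, Rsad2, Oasl2, Ifit3 and Ifit1, and for 0.313% of all genes tested. The median difference was 0.44 over the 42 members and -0.04 over all genes tested.

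Some members did not share this. Irf1 stood at 22.04 TPM in rat 2 and between 19.4 and 25.5 TPM in the other 4, and Zbp1 at 3.40 TPM against 1.92 to 4.71 TPM. The immunoproteasome subunits Psmb8 and Psmb9 were lowest of the group in rat 2, at 4.49 and 11.7 TPM. Of the 53 listed genes of a wider interferon pathway list, 14 (26.4%) were highest of the group in rat 2. Cxcl10, an interferon-induced chemokine named after its values were seen, was at 29.1 TPM in rat 2, while the other 4 UVB P1.hMR rats had 1.73, 1.47, 0.62 and 0.65 TPM and the highest control rat 1.61 TPM. In UVB WT rats Cxcl10 was at 0.93, 0.24 and 3.11 TPM. Ifnb1, the gene of interferon beta, also named after its values were seen, was at 0.53 TPM in rat 2 and between 0.17 and 0.70 TPM in the other 4.

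Markers of the cell types that eyelid tissue could hold were summed in rat 2 and in its group. The leukocyte markers summed to 43.5 TPM in rat 2 and to between 42.4 and 48.96 TPM in the other 4 rats, and the T cell markers to 11.2 TPM against 12.1 to 13.8 TPM. Macrophage and monocyte markers summed to 93.2 TPM, against 95.1 to 126 TPM. Markers of plasmacytoid dendritic cells, a main source of type I interferon, summed to 14.7 TPM against 11.98 to 14.4 TPM, nearly all of it Tcf4, with the defining marker Siglech at 0.32 TPM. Keratinocyte markers were lower, at 11470 TPM against 12865.5 to 15760 TPM, and meibocyte markers higher, at 17850 TPM against 15020.5 to 17432 TPM. The part of these differences in the members' values was not tested.

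**Figure D3:**
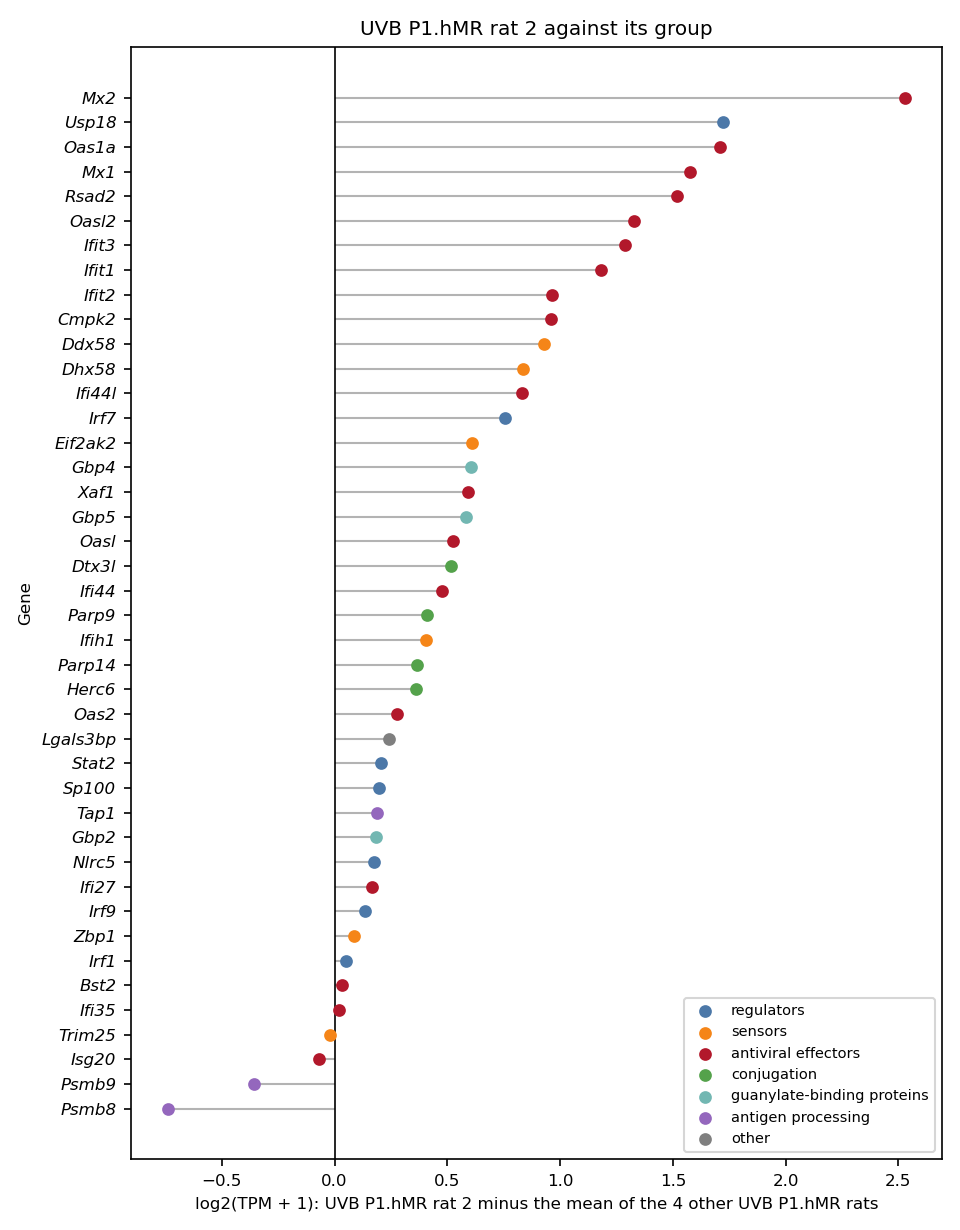
Difference on the log2(TPM + 1) scale between UVB P1.hMR rat 2 and the mean of the 4 other UVB P1.hMR rats for each of the 42 listed members, coloured by role. Mx2 lies farthest to the right at 2.53, and Psmb8 farthest to the left at -0.74.

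The members varied more between rats of a group than genes did in general. The median SD of log2(TPM + 1) over the 40 tested members was 0.176 in Control WT (0.118 over all genes tested), 0.172 in Control P1.hMR (0.111), 0.198 in UVB WT (0.122) and 0.286 in UVB P1.hMR rats (0.109). Without rat 2 the UVB P1.hMR value was 0.173, against 0.0976. The members also moved together within groups. Over the 780 pairs of tested members, the median Pearson correlation of the deviations from group means across the 17 rats was 0.30, against 0.04 over all pairs of genes tested, and 0.15 against 0.04 over the 16 rats without rat 2. Points in these correlations share a library, and no test was made. Rats of other groups also stood to 1 side: Control WT rat 4 was highest of its group for 29 of 42 members (69.0%; 24.2% of all genes tested), Control WT rat 1 lowest for 26 (34.7% of all genes tested), and UVB WT rat 2 lowest for 27 (40.3% of all genes tested).

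The first comparison asked how the members stood after UVB in WT rats. Here 5 of 40 members were called lower (12.5%, against a background of 3.98% of all genes tested) and 0 higher (background 3.92%). The 5 were Irf1, Rsad2, Herc6, Cmpk2 and Zbp1. With an adjusted p under 0.05 and any fold, 7 members were lower and 1, Trim25, was higher, together 20% of the 40, against 21.5% of all genes tested in either direction. Fold changes were negative for 28 of 40 members (70%), against 48.8% of all genes tested, with a median of -0.12 against 0.01. The share and the median rested partly on single rats: without UVB WT rat 2, 22 of 40 members were negative with a median of -0.04, without UVB WT rat 3 it was 33 of 40 with -0.19, and without Control WT rat 4 it was 26 of 40 with -0.08. Every UVB WT rat lay below every Control WT rat for 9 members (22.5%), against 12.6% of all genes tested. The count of called members fell to 3 without Control WT rat 4 and to 3 without UVB WT rat 2, in both cases through the loss of Rsad2 and Cmpk2. A pseudocount of 0.1 in place of 1 gave larger fold changes for Rsad2 (-1.68) and Herc6 (-1.08).

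In P1.hMR rats, 8 of 40 members were called lower after UVB (20%, background 5.71%) and 0 higher (background 5.05%). The 8 were Irf1, Ifit2, Oasl, Gbp4, Cmpk2, Zbp1, Psmb8 and Nlrc5. With an adjusted p under 0.05 and any fold, 14 members were lower and 1 was higher, together 37.5%, against 39.1% of all genes tested. Fold changes were negative for 29 of 40 members (72.5%), against 52.9% of all genes tested, with a median of -0.20 against -0.02. Every UVB rat lay below every control rat for 5 members (12.5%), against 14% of all genes tested.

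Without rat 2, 10 members were called lower in P1.hMR rats (25%, background 5.56%): Psmb8 was no longer called, and Herc6, Ifit3 and Rsad2 were added. Then 37 of 40 members (92.5%) had a negative fold change, against 51.9% of all genes tested, with a median of -0.32 against -0.01. Every remaining UVB rat lay below every control rat for 14 members (35%), against 15.4% of all genes tested. Rat 2 was highest of its group for most members, so leaving it out lowers their UVB values by construction. Figures and calls without it are a description, not added evidence of a fall. Irf1, Cmpk2 and Zbp1 were called in both genotypes, and 10 members in at least 1. The matching shares over all genes tested are not given, so these counts are only a description. The comparisons of the 2 genotypes share no rats, but 1 fit over all groups shares the estimate of the spread. A call in both genotypes is therefore not fully independent, and rat 2 also enters the standard errors in WT rats.

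**Figure D4:**
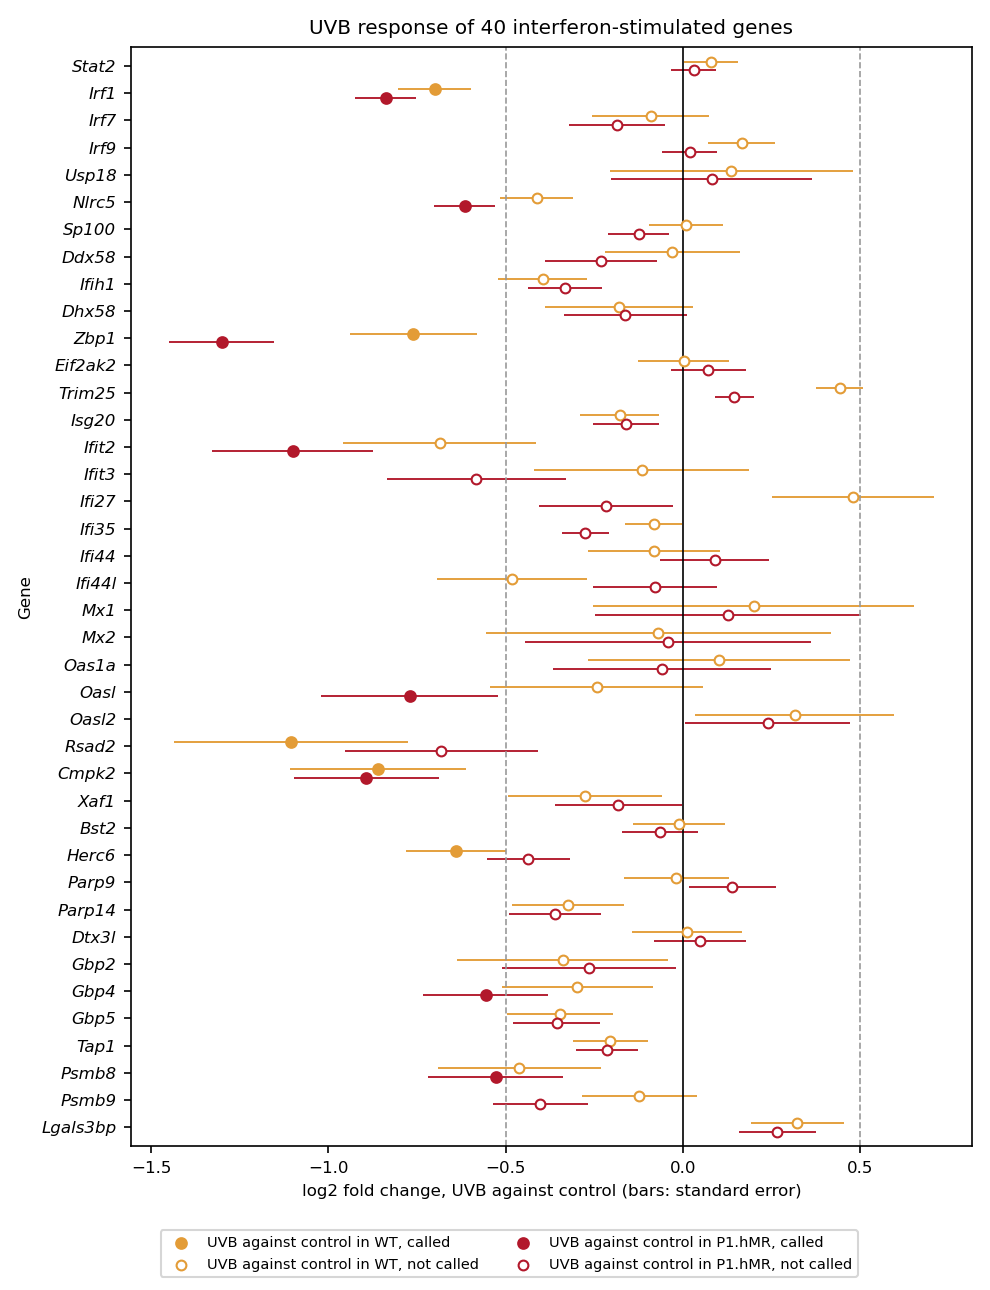
Log2 fold change of UVB against control for the 40 tested members in WT rats (orange) and in P1.hMR rats (red), with standard errors as bars, filled points for called members and dashed lines at -0.5 and 0.5. Filled points lie on the negative side only, from -0.53 for Psmb8 to -1.30 for Zbp1, both in P1.hMR rats.

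Among the 7 regulators, 1 was called lower in WT and 2 in P1.hMR rats. Irf1, the transcription factor induced by interferon gamma, stood at 26.3, 36.3, 33.6 and 37.7 TPM in Control WT rats, 38.9, 40.6, 39.2, 36.4 and 40.1 in Control P1.hMR rats, 19.3, 21.3 and 19.6 in UVB WT rats and 20.9, 22.04, 19.6, 25.5 and 19.4 in UVB P1.hMR rats. (Values are given in replicate order throughout.) All UVB rats lay below all control rats in both genotypes. The log2 fold change of Irf1 was -0.70 ± 0.10 (SE, adjusted p = 0.000382) in WT and -0.84 ± 0.09 (SE, adjusted p = 4.31e-06) in P1.hMR rats, and its call held with each rat left out in turn.

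Nlrc5, the activator of MHC class I genes, stood at 2.59, 3.06, 2.92 and 3.43 TPM in Control WT rats, 3.1, 3.6, 4.44, 3.21 and 3.24 in Control P1.hMR rats, 2.16, 2.02 and 1.82 in UVB WT rats and 1.87, 2.23, 1.81, 1.9 and 1.87 in UVB P1.hMR rats. The 8 UVB rats again lay below all 9 control rats. On the log2 scale Nlrc5 changed by -0.41 ± 0.10 (SE, adjusted p = 0.0102) in WT rats, below the fold threshold, and -0.62 ± 0.09 (SE, adjusted p = 5.14e-05) in P1.hMR rats. With a pseudocount of 0.1 the WT value was -0.56 and called. The difference between these responses did not pass the interaction test, at -0.20 ± 0.13 (SE, adjusted p = 0.798).

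Stat2, which carries the activation domain of the ISRE-binding complex, stood at 14.4, 15.2, 14.98 and 15.8 TPM in Control WT rats, 15.99, 14.1, 15.5, 16.1 and 17.9 in Control P1.hMR rats, 17.2, 15.2 and 15.7 in UVB WT rats and 14.7, 18.3, 16.2, 15.9 and 16.2 in UVB P1.hMR rats. The 4 groups overlapped. Its log2 fold change was 0.08 ± 0.08 (SE, adjusted p = 0.484) in WT and 0.03 ± 0.06 (SE, adjusted p = 0.727) in P1.hMR rats.

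Irf7, the amplifier of type I interferon production whose promoter is printed above, stood at 19.2, 21.9, 20.5 and 24.4 TPM in Control WT rats, 20.9, 23.2, 23.9, 23.7 and 27.2 in Control P1.hMR rats, 18.5, 18.1 and 24.1 in UVB WT rats and 17.9, 32.01, 20.98, 18.4 and 17.1 in UVB P1.hMR rats. Apart from rat 2, the UVB P1.hMR rats lay between 17.1 and 20.98 TPM, and met the Control P1.hMR range of 20.9 to 27.2 TPM only at its lower end. With all rats the log2 fold change was -0.19 ± 0.14 (SE, adjusted p = 0.298) in P1.hMR rats and -0.09 ± 0.16 (SE, adjusted p = 0.734) in WT rats, neither past the threshold.

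Usp18 stood at 1.22, 1.25, 1.37 and 1.78 TPM in Control WT rats, 1.26, 1.86, 1.99, 0.93 and 1.63 in Control P1.hMR rats, 1.81, 1.16 and 2.01 in UVB WT rats and 1.06, 5.88, 1.6, 1.33 and 0.52 in UVB P1.hMR rats. Only rat 2 left the range of 0.52 to 2.01 TPM. The log2 fold change of Usp18 was 0.14 ± 0.34 (SE, adjusted p = 0.812) in WT and 0.08 ± 0.28 (SE, adjusted p = 0.842) in P1.hMR rats, and the latter was -0.26 without rat 2. Irf9 and Sp100, a nuclear body protein, had values of 0.17 and 0.01 in WT and of 0.02 and -0.12 in P1.hMR rats, none past the threshold.

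Of the 6 nucleic acid sensors, 1 was called lower in each genotype. Zbp1, a sensor of left-handed nucleic acid that can trigger cell death, had the largest negative fold change of all members in P1.hMR rats. It stood at 5.35, 9.05, 7.37 and 8.32 TPM in Control WT rats, 10.1, 9.61, 8.99, 10.2 and 8 in Control P1.hMR rats, 4.01, 4.37 and 3.53 in UVB WT rats and 3.31, 3.4, 3.13, 4.71 and 1.92 in UVB P1.hMR rats. No UVB rat reached the lowest control rat. Its log2 fold change was -0.76 ± 0.18 (SE, adjusted p = 0.00723) in WT and -1.30 ± 0.15 (SE, adjusted p = 8.87e-06) in P1.hMR rats. The difference of -0.54 ± 0.23 between the responses had an adjusted p of 0.71 in the interaction test. Rat 2 lay within its group for this gene.

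The RNA sensors Ddx58 (RIG-I), Ifih1 (MDA5) and Dhx58 (LGP2) were lower on average in both genotypes, with none called when all rats were fitted. Ifih1 had a log2 fold change of -0.39 ± 0.13 (SE, adjusted p = 0.0341) in WT and -0.33 ± 0.10 (SE, adjusted p = 0.0183) in P1.hMR rats, under the fold threshold, and was called in WT rats without UVB WT rat 3 (-0.50). Ddx58 had values of -0.03 and -0.23, and Dhx58 of -0.18 and -0.16, none past the adjusted p. Trim25, the ubiquitin ligase that helps activate RIG-I, was the 1 member higher at an adjusted p under 0.05, with a log2 fold change of 0.44 ± 0.07 (SE, adjusted p = 0.000382) in WT and 0.15 ± 0.05 (SE, adjusted p = 0.0434) in P1.hMR rats, both under the fold threshold. Eif2ak2, the kinase PKR that stops translation on double-stranded RNA, had values of 0.00 and 0.07.

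**Figure D5:**
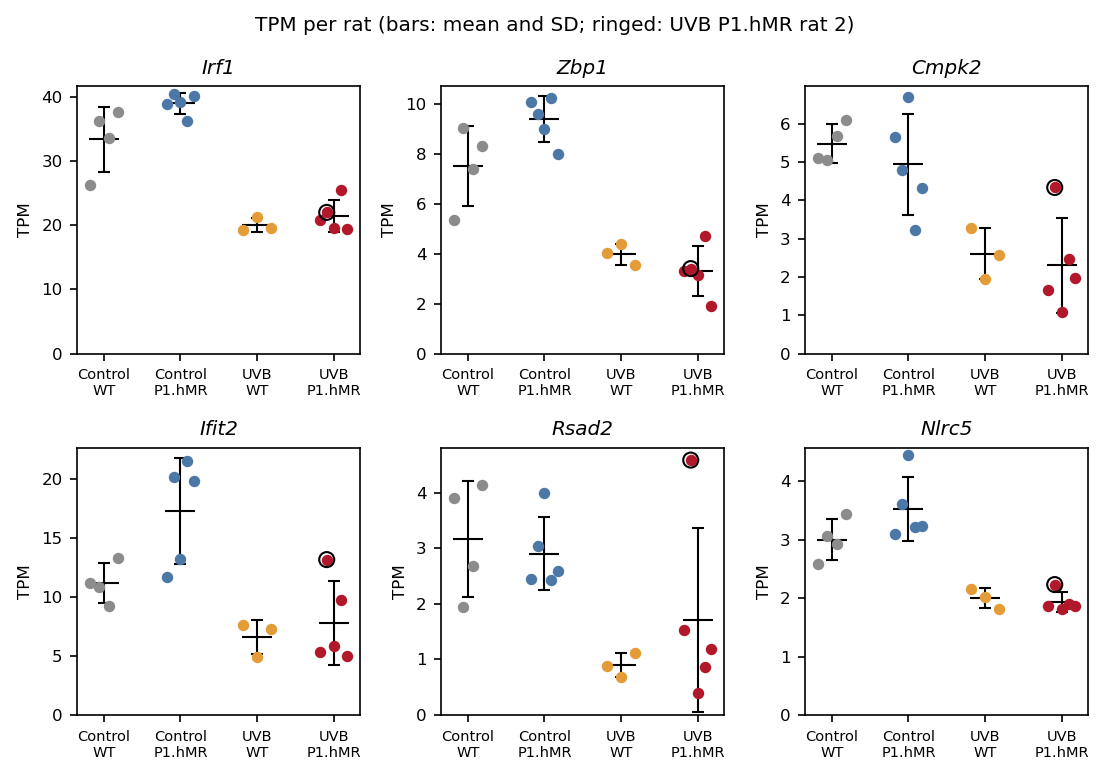
TPM of Irf1, Zbp1, Cmpk2, Ifit2, Rsad2 and Nlrc5 in each rat, by group, with the mean and SD of each group as black bars and UVB P1.hMR rat 2 ringed. The UVB groups lie below both control groups for Irf1, Zbp1 and Nlrc5, and rat 2 lies above all control rats for Rsad2 and within the Control P1.hMR range for Ifit2 and Cmpk2.

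The antiviral effectors formed the largest group, with 16 tested members, of which 2 were called lower in WT and 3 in P1.hMR rats. Cmpk2, a mitochondrial nucleotide kinase next to Rsad2 in the genome, was called in both. It stood at 5.1, 5.05, 5.69 and 6.1 TPM in Control WT rats, 5.65, 4.79, 6.71, 3.23 and 4.33 in Control P1.hMR rats, 3.29, 1.96 and 2.57 in UVB WT rats and 1.66, 4.34, 1.08, 2.46 and 1.97 in UVB P1.hMR rats. The WT groups did not overlap, while rat 2 lay inside the Control P1.hMR range. Cmpk2 had a log2 fold change of -0.86 ± 0.25 (SE, adjusted p = 0.0212) in WT and -0.89 ± 0.20 (SE, adjusted p = 0.00274) in P1.hMR rats. The WT call was lost without Control WT rat 4 (-0.82), UVB WT rat 2 (-0.73) or UVB WT rat 3 (-0.86), and the P1.hMR call held with each rat left out.

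Rsad2 (viperin), which makes a chain-terminating nucleotide, stood at 3.9, 1.94, 2.68 and 4.15 TPM in Control WT rats, 2.45, 3.05, 3.99, 2.43 and 2.6 in Control P1.hMR rats, 0.88, 0.69 and 1.12 in UVB WT rats and 1.53, 4.59, 0.4, 0.87 and 1.19 in UVB P1.hMR rats. All UVB WT rats lay below all Control WT rats. In P1.hMR rats the 4 UVB rats other than rat 2 lay below all control rats, and rat 2 lay above them. The log2 fold change was -1.11 ± 0.33 (SE, adjusted p = 0.025) in WT and -0.68 ± 0.27 (SE, adjusted p = 0.0578) in P1.hMR rats. Its WT call was lost without Control WT rat 1 (-1.02), Control WT rat 4 (-0.99), UVB WT rat 1 (-1.10) or UVB WT rat 2 (-1.03). Without rat 2 the P1.hMR value was -0.99 ± 0.19 (SE, adjusted p = 0.000899), and Rsad2 was called, as it was with a pseudocount of 0.1 (-1.11) or sample weights (-0.85).

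Ifit2, an interferon-induced protein with tetratricopeptide repeats that binds viral RNA, stood at 11.2, 10.8, 9.26 and 13.3 TPM in Control WT rats, 11.6, 20.1, 13.2, 21.5 and 19.8 in Control P1.hMR rats, 7.61, 4.95 and 7.25 in UVB WT rats and 5.29, 13.2, 5.83, 9.75 and 5.01 in UVB P1.hMR rats. All 3 UVB WT rats lay below the Control WT rats, and 4 of 5 UVB P1.hMR rats below the Control P1.hMR rats. The log2 fold change was -0.69 ± 0.27 (SE, adjusted p = 0.0843) in WT and -1.10 ± 0.23 (SE, adjusted p = 0.0012) in P1.hMR rats, and the P1.hMR call held with each rat left out. The WT value passed as a call without UVB P1.hMR rat 2 (-0.69, adjusted p = 0.0414 in limma). Its relative Ifit3 stood at 2.8, 4.87, 3.82 and 5.36 TPM in Control WT rats, 4.49, 7.87, 5.86, 7.21 and 10.3 in Control P1.hMR rats, 4.48, 2.96 and 3.84 in UVB WT rats and 3.31, 9.78, 3.72, 4.18 and 2.62 in UVB P1.hMR rats. With all rats Ifit3 had a log2 fold change of -0.12 ± 0.30 (SE, adjusted p = 0.821) in WT and -0.58 ± 0.25 (SE, adjusted p = 0.0777) in P1.hMR rats. Without rat 2 the P1.hMR value was -0.84 ± 0.19 (SE, adjusted p = 0.00338), and Ifit3 was called, as it was without Control P1.hMR rat 1 (-0.71) or with sample weights (-0.72).

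Ifit1, left out by the filter, stood at 0.32, 0.38, 0.44 and 0.46 TPM in Control WT rats, 0.26, 0.06, 0.52, 0.26 and 0.84 in Control P1.hMR rats, 0.04, 0.06 and 0.76 in UVB WT rats and 0.31, 1.84, 0.29, 0.06 and 0.37 in UVB P1.hMR rats. Only rat 2 passed 1 TPM. The Ifit genes are related in sequence, as are the Mx, Oas and guanylate-binding protein genes, and how the authors' counting shared reads between relatives is uncertain.

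Oasl, a synthase-like protein that binds RIG-I, stood at 3.41, 5.48, 5.41 and 3.6 TPM in Control WT rats, 5.17, 4.95, 5.17, 7.55 and 6.02 in Control P1.hMR rats, 8.45, 1.92 and 2.42 in UVB WT rats and 2.37, 4.26, 2.8, 3.31 and 2.24 in UVB P1.hMR rats. UVB WT rat 1 was the highest of all rats, and the other UVB WT rats lay below all controls. Oasl had a log2 fold change of -0.24 ± 0.30 (SE, adjusted p = 0.604) in WT and -0.77 ± 0.25 (SE, adjusted p = 0.022) in P1.hMR rats, and without UVB WT rat 1 the WT value was -0.77 and called. The P1.hMR call was lost without Control P1.hMR rat 4 (-0.68), UVB P1.hMR rat 1 (-0.71) or UVB P1.hMR rat 5 (-0.70). Oas1a stood at 1.65, 1.07, 1.52 and 2.78 TPM in Control WT rats, 1.54, 1.92, 2.39, 2.21 and 2.36 in Control P1.hMR rats, 1.02, 1.95 and 3.04 in UVB WT rats and 0.95, 6.59, 2.18, 1.54 and 0.85 in UVB P1.hMR rats. Its log2 fold change was 0.10 ± 0.37 (SE, adjusted p = 0.875) in WT and -0.06 ± 0.31 (SE, adjusted p = 0.898) in P1.hMR rats.

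Mx1, a GTPase that traps viral nucleocapsids, stood at 0.91, 1.61, 0.97 and 2.76 TPM in Control WT rats, 0.86, 3.16, 3.32, 1.33 and 2.4 in Control P1.hMR rats, 1.69, 0.94 and 3.35 in UVB WT rats and 1.21, 6.99, 4.22, 1.22 and 1.02 in UVB P1.hMR rats. All groups overlapped. The log2 fold change was 0.20 ± 0.45 (SE, adjusted p = 0.791) in WT and 0.13 ± 0.38 (SE, adjusted p = 0.812) in P1.hMR rats, and -0.19 in P1.hMR rats without rat 2. Ifi35 was lower in P1.hMR rats at -0.27 ± 0.07 (SE, adjusted p = 0.00377), under the fold threshold. Ifi27 was at 0.48 ± 0.23 (SE, adjusted p = 0.14) in WT and at -0.22 ± 0.19 (SE, adjusted p = 0.38) in P1.hMR rats. The other tested effectors, Isg20, Ifi44, Ifi44l, Mx2, Oasl2, Xaf1 and Bst2, lay between -0.48 and 0.32 in WT and between -0.18 and 0.24 in P1.hMR rats, none past the adjusted p.

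Of the 4 tested genes of protein conjugation, 1 was called lower in WT rats. Herc6, the ligase that attaches Isg15 to proteins in rodents, stood at 1.27, 1.9, 1.97 and 2.14 TPM in Control WT rats, 1.55, 2.15, 1.58, 1.86 and 1.32 in Control P1.hMR rats, 0.63, 0.79 and 0.99 in UVB WT rats and 0.8, 1.42, 0.95, 1.03 and 0.76 in UVB P1.hMR rats. No UVB WT rat reached the Control WT rats, and among P1.hMR rats only rat 2 did. Herc6 had a log2 fold change of -0.64 ± 0.14 (SE, adjusted p = 0.00495) in WT and -0.44 ± 0.12 (SE, adjusted p = 0.00741) in P1.hMR rats. Without rat 2 the P1.hMR value was -0.51 ± 0.11 (SE, adjusted p = 0.00293), and Herc6 was called, as it was with a pseudocount of 0.1 (-0.73). Parp14, an ADP-ribosyltransferase, had -0.32 ± 0.16 (SE, adjusted p = 0.153) in WT and -0.36 ± 0.13 (SE, adjusted p = 0.0369) in P1.hMR rats, under the fold threshold in both. The partners Parp9 and Dtx3l, which share a promoter region and act as 1 complex, had values of -0.02 and 0.01 in WT and of 0.14 and 0.05 in P1.hMR rats.

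Guanylate-binding proteins are GTPases that attack the membranes of intracellular pathogens. Of the 3 in the list, 1 was called lower in P1.hMR rats, and all 3 had negative fold changes in both genotypes. Gbp4 had -0.30 ± 0.21 (SE, adjusted p = 0.339) in WT and -0.56 ± 0.18 (SE, adjusted p = 0.0201) in P1.hMR rats, at levels between 0.32 and 2.09 TPM. Its call was lost without Control P1.hMR rat 5 (-0.50) or UVB P1.hMR rat 5 (-0.47), and with a pseudocount of 0.1 the value was -1.07. Gbp5 had -0.35 ± 0.15 (SE, adjusted p = 0.107) and -0.36 ± 0.12 (SE, adjusted p = 0.0304), under the fold threshold. Gbp2, whose promoter is printed above, stood at 9.86, 25.5, 11.9 and 9.57 TPM in Control WT rats, 18.9, 11.6, 10.8, 13.4 and 15.1 in Control P1.hMR rats, 12.7, 7.65 and 10.6 in UVB WT rats and 14.97, 12.6, 10.5, 13.5 and 6.66 in UVB P1.hMR rats. Control WT rat 2 was the highest of all rats for Gbp2 and Gbp4. The log2 fold change of Gbp2 was -0.34 ± 0.30 (SE, adjusted p = 0.444) in WT and -0.26 ± 0.25 (SE, adjusted p = 0.419) in P1.hMR rats.

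The 3 antigen-processing genes lie together in the MHC region. Psmb8, an immunoproteasome subunit, stood at 7.18, 7.94, 10.4 and 13.1 TPM in Control WT rats, 11.6, 11.8, 11.1, 9.64 and 10.7 in Control P1.hMR rats, 8.46, 4.17 and 7.86 in UVB WT rats and 10.01, 4.49, 7.02, 7.32 and 8.61 in UVB P1.hMR rats. The groups overlapped in both genotypes. Its log2 fold change was -0.46 ± 0.23 (SE, adjusted p = 0.166) in WT and -0.53 ± 0.19 (SE, adjusted p = 0.0378) in P1.hMR rats, and the P1.hMR call was lost without rat 2, at -0.38 ± 0.18 (SE, adjusted p = 0.104). It was also lost without Control P1.hMR rat 1, 2, 3 or 5 or UVB P1.hMR rat 3 or 4, with values from -0.54 to -0.50, and with no filter on low values (-0.53), quantile normalization (-0.495) or sample weights (-0.459). Tap1, which moves peptides into the endoplasmic reticulum, stood at 15.5, 19.4, 17.02 and 18.3 TPM in Control WT rats, 16.6, 18.4, 16.7, 21.1 and 18.6 in Control P1.hMR rats, 15.98, 15.3 and 14.01 in UVB WT rats and 12.7, 17.4, 16.4, 17.6 and 14.3 in UVB P1.hMR rats. Tap1 had -0.20 ± 0.11 (SE, adjusted p = 0.184) in WT and -0.21 ± 0.09 (SE, adjusted p = 0.0654) in P1.hMR rats. Psmb9 had -0.12 ± 0.16 (SE, adjusted p = 0.628) in WT and -0.40 ± 0.13 (SE, adjusted p = 0.0256) in P1.hMR rats, under the fold threshold. Lgals3bp, a secreted glycoprotein, was at 0.32 and 0.27, neither past the adjusted p.

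The second question was whether the members differed between genotypes. Under UVB, 0 of 40 members were called between P1.hMR and WT rats (background 0.0229%), and 1 had an unadjusted p under 0.05 in limma (2.5%, against 10.3% of all genes tested). Without rat 2 again 0 were called (background 0.0382%). The median fold change of 0.04 had no stable sign: it was -0.04 without rat 2, -0.03 without UVB WT rat 2, 0.16 without UVB WT rat 3, 0.09 and 0.10 without UVB P1.hMR rats 1 and 5, and -0.0055 with sample weights. Ifi27 had the largest value, -0.37 ± 0.22 (SE, adjusted p = 0.593). Rsad2 followed at 0.35 ± 0.31 (SE, adjusted p = 0.747) and was 0.05 without rat 2. Ifih1 had 0.25 ± 0.12 (SE, adjusted p = 0.5). Every UVB P1.hMR rat lay below every UVB WT rat for 1 member (2.5%), against 542 of the 13105 genes tested. This was Trim25, at 31.88 to 33.01 TPM in UVB P1.hMR and 35.27 to 40.13 TPM in UVB WT rats.

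For the other members followed in every comparison, the UVB genotype values were 0.02 for Stat2, 0.09 for Irf1, 0.04 for Irf7, 0.16 for Ifit3, 0.24 for Mx1, 0.03 for Oas1a, 0.01 for Usp18, 0.14 for Gbp2, 0.04 for Tap1 and 0.13 for Psmb8. None passed the test, and the values of Stat2, Irf7, Ifit3, Mx1, Oas1a and Usp18 were negative without rat 2.

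Without UVB, 0 of 40 members were called between P1.hMR and WT rats (background 0.00763%), and 5 had an unadjusted p under 0.05 in limma (12.5%, against 4.03% of all genes tested). Fold changes were positive for 30 of 40 members, with a median of 0.10 against -0.0023 over all genes tested. Ifit3 had the largest value, 0.63 ± 0.27 (SE, adjusted p = 0.998), followed by Ifit2 at 0.56 ± 0.24 (SE, adjusted p = 0.998) and Psmb9 at 0.34 ± 0.14 (SE, adjusted p = 0.998). Irf1 stood at 0.23, Mx1 at 0.31, Psmb8 at 0.20, Oas1a at 0.19, Irf7 at 0.14, Stat2 and Gbp2 at 0.07, Usp18 at 0.06, Tap1 at 0.05 and Rsad2 at -0.07.

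The interaction of genotype and UVB tests whether the UVB response differed between P1.hMR and WT rats. It called 0 of 40 members (background 0%), and 3 had an unadjusted p under 0.05 in limma (7.5%, against 6.92% of all genes tested). Ifi27 had the largest value at -0.70 ± 0.30 (SE, adjusted p = 0.711), then Zbp1 at -0.54 ± 0.23 (SE, adjusted p = 0.711) and Oasl at -0.53 ± 0.39 (SE, adjusted p = 0.833). The median over the 40 members was -0.06 with all rats. With each rat left out it ran from -0.16 without UVB P1.hMR rat 2 to 0.03 without UVB WT rat 3, and it was -0.15 without UVB WT rat 2, -0.13 without Control WT rat 4 and -0.01 without Control WT rat 1 or UVB P1.hMR rat 5. Calls made in 1 genotype only, such as Rsad2 and Herc6 in WT or Ifit2, Oasl, Gbp4, Psmb8 and Nlrc5 in P1.hMR rats, were therefore not shown to differ between genotypes.

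The wider pathway list held 60 other genes of interferon signalling, of which 53 were listed and 49 tested. In WT rats 2 of these were called higher after UVB (4.08%, background 3.92%) and 3 lower (6.12%, background 3.98%). In P1.hMR rats 3 were called higher (6.12%, background 5.05%) and 5 lower (10.2%, background 5.71%). These shares lay near those of all genes tested, apart from the last, and the called genes are named as a description. Plscr1, a phospholipid scramblase induced by interferon, was called higher in both, at 1.13 ± 0.14 (SE, adjusted p = 0.000117) and 0.98 ± 0.12 (SE, adjusted p = 1.37e-05). Ifitm1, a membrane protein that blocks viral entry, was called higher in both, at 0.64 ± 0.17 (SE, adjusted p = 0.0147) and 0.58 ± 0.14 (SE, adjusted p = 0.0043). The DNA sensor Cgas was called higher in P1.hMR rats at 0.70 ± 0.13 (SE, adjusted p = 0.000517), and at 1.21 with a pseudocount of 0.1.

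Called lower in both were the immunity-related GTPases Ifi47 (-0.68 in WT, -1.01 in P1.hMR) and Irgm (-0.55 and -0.64), and Samhd1, which degrades the building blocks of DNA (-0.65 and -0.68). B2m, the light chain of MHC class I, and Il10rb, a receptor chain for interferon lambda, were called lower in P1.hMR rats, at -0.52 and -0.56. Neither was called in WT rats. For B2m every UVB WT rat (351.67 to 376.58 TPM) still lay below every Control WT rat (428.19 to 558.83 TPM). B2m was called in WT rats with quantile normalization (-0.516), with sample weights (-0.51) or without Control WT rat 1 (-0.543). Its P1.hMR call was lost with median-of-ratios scaling (-0.496). Leaving out 1 rat ended the WT call of Ifi47 (UVB WT rat 2, -0.50), of Ifitm1 (UVB WT rat 1 or 3, 0.59 in both) and of Samhd1 (UVB WT rat 1 or 2, -0.59 and -0.65), and that of Irgm for 5 of the 7 WT rats (-0.58 to -0.41; Control WT rats 2, 3 and 4 and UVB WT rats 2 and 3). It ended the P1.hMR call of Ifitm1 (UVB rat 4, 0.49), of Il10rb (Control rat 4 or UVB rat 1, -0.50 and -0.47) and of B2m (Control rat 3 or UVB rat 3 or 5, -0.49 to -0.46). No gene of the list was called between genotypes or in the interaction.

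Marker genes of the gland and of immune cells also differed with UVB, in both directions. The meibocyte sum was 19145.7 to 22819.7 TPM in Control WT and 16106.6 to 16939.3 TPM in UVB WT rats, with no overlap, and 17376.3 to 20494.8 TPM in Control P1.hMR and 15020.5 to 17850 TPM in UVB P1.hMR rats, with overlap. Of its 9 genes Awat2 was called lower in each genotype (WT first, -0.65 and -0.52), and Elovl3, a fatty acid elongase, was called higher in each (0.55 and 0.77). Awat2 was the largest part of the sum, averaging 11609.7 TPM in Control WT and 7379.7 TPM in UVB WT rats. In WT rats Pparg, Elovl3, Soat1 and Fasn had positive fold changes, and Awat2, Awat1, Elovl4, Plin2 and Far2 negative ones. The sum is therefore no measure of the number of meibocytes. Keratinocyte markers summed to 10256.6 to 12833.6 TPM in Control WT and 12836.1 to 14984.9 TPM in UVB WT rats, with no overlap. In P1.hMR rats the sums overlapped, at 10945.7 to 11868.3 TPM in control and 11470.1 to 15760.4 TPM in UVB rats. None of the 5 keratinocyte genes was called. Krt14 had 0.479 and 0.498, under the fold threshold, and Krt5 had -0.01 and -0.16.

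The 3 leukocyte markers summed to 22.1 to 38.95 TPM in Control WT and 26.4 to 45.8 TPM in UVB WT rats, with overlap. They summed to 26.06 to 38.4 TPM in Control P1.hMR and 42.4 to 48.96 TPM in UVB P1.hMR rats, with no overlap. Laptm5 was called higher in P1.hMR rats (0.66), while Coro1a (0.14 and 0.28) and the pan-leukocyte gene Ptprc (0.03 and -0.03) were not called. Among 7 tested macrophage and monocyte markers, 3 were called higher in each genotype, namely Cd163 (2.55 and 2.66), Cd14 (0.84 and 0.99) and Mrc1 (1.33 and 1.33). The other 4 were not called, with Cd68 at -0.36 and -0.29, Csf1r at 0.02 and -0.12, Adgre1 at 0.06 and -0.19 and Aif1 at 0.50 and 0.51. The whole list summed to between 54.98 and 98.6 TPM in control rats, and to between 70.9 and 126 TPM in UVB rats.

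Of 4 tested T cell markers, Cd8a (1.07 and 1.84) and Cd2 (0.79 and 0.88) were called higher in each genotype. Under UVB, 1 of the 4 was called higher in P1.hMR than in WT rats, against 0.0229% of all genes tested called in either direction. Cd8a averaged 4.09 TPM in UVB P1.hMR and 1.78 TPM in UVB WT rats. The CD3 chains of the T cell receptor complex, Cd3e (-0.33 and -0.26) and Cd3g (-0.29 and 0.13), were not called. The T cell sum was 5.45 to 7.85 TPM in Control WT and 5.74 to 12.1 TPM in UVB WT rats, with overlap. It was 4.12 to 9.43 TPM in Control P1.hMR and 11.15 to 13.8 TPM in UVB P1.hMR rats, with no overlap. Among 3 tested neutrophil markers, Csf3r was called higher in each genotype (0.88 and 1.22) and S100a9 in P1.hMR rats (0.59, and 0.45 in WT rats). S100a8 was not called (0.14 and 0.37). In Control WT rats S100a8 and S100a9 averaged 1353.8 and 336.2 TPM, while Csf3r averaged 0.12 TPM. The paper reports S100A9 protein in the epithelium of human eyelids, so these transcripts are not particular to neutrophils. Which cells held them here was not tested. Of the 2 endothelial markers Vwf was called higher in each (0.70 and 0.55).

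Cd207, the marker of Langerhans cells, was called lower in each genotype (-1.11 and -1.26), and made up most of the dendritic cell sum, which was 14.9 to 35.5 TPM in control and 10.2 to 13.5 TPM in UVB rats, with no overlap. On the same list Flt3, a growth factor receptor, went the other way (0.48 and 0.56) and was called higher in P1.hMR rats, and Itgax was not called (-0.20 and -0.13). The 3 listed natural killer and cytotoxic cell markers never summed above 1.53 TPM, the 4 B cell markers never above 1.62 TPM, and Siglech averaged between 0.03 and 0.32 TPM in the 4 groups. The part of these cell types in the members' values was not tested.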

How the data were processed

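RNA of the MG was sequenced from 17 rats and grouped by the deposited labels. Per the study's methods, reads were checked with FastQC, aligned to rn7 with STAR and quantified with RSEM, while the submitters' processing notes name FastQC, Trimmomatic, DRAGEN, Picard and rn7. Which of these made the table is not settled here. The authors deposited TPM for 17251 genes, with 2 decimals. TPM keeps no depth, and precision comes from the spread between rats. The 13105 genes that reached 1 TPM in 3 or more rats entered limma 3.58.1 (R 4.3.3) as log2(TPM + 1), with 4 group means and a variance trend, and the fit was tested on simulated data. Calls needed a two-sided adjusted p (Benjamini-Hochberg) under 0.05 and a log2 fold change of 0.5 or more in either direction. The members and lists were chosen with earlier results of these data known. Values in every rat are given for 12 listed members fixed by name and for up to 8 called members with the largest fold changes. Fold changes are given for called members, for those with an adjusted p under 0.05 after UVB, for the 3 with the largest changes in each comparison and for the fixed members. The alternatives were median-of-ratios scaling, quantile normalization, a pseudocount of 0.1, no filter, a filter at a mean of 5 TPM, sample weights, no trend, fits of 2 groups alone, a replicate block, other fold thresholds and each rat left out. Tables and figures were made in Python 3.11.15 with numpy 2.4.6, pandas 2.3.3 and matplotlib 3.10.9.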

Additional observations from a re-analysis of the deposited data

Results flagged for a closer look

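A rat was marked where its gap to the nearest rat of its group, divided by the range of the group, passed Dixon's 95% critical value. This was tested in groups of 4 or 5 rats, for the 42 listed members and the median level of the members, in 129 tests of which 16 were marked. Chance marks about 1 in 20 groups.

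Of the marks, 13 were high values of UVB P1.hMR rat 2 (31.0% of the listed members, against 0.870% of all genes tested). This rat was set apart by the rule of the list, which was made with earlier results of these data known. Its marks therefore describe that choice and are no added evidence for it. They also share 1 library, so they are not separate results. Irf7 stood at 32.01 TPM in this rat, with the other 4 rats between 17.1 and 20.98 TPM. Ifit1 was at 1.84 TPM, Ifit3 at 9.78 TPM, Mx2 at 10.52 TPM, Oas1a at 6.59 TPM, Oasl2 at 3.9 TPM and Rsad2 at 4.59 TPM. Usp18 was at 5.88 TPM and Nlrc5 at 2.23 TPM. Among the sensors, Ifih1 stood at 6.15 TPM, Ddx58 at 5.16 TPM, Dhx58 at 6.51 TPM and Eif2ak2 at 21.17 TPM.

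In other rats, Gbp2 stood at 25.47 TPM in Control WT rat 2, with the others of the group between 9.57 and 11.86 TPM. Eif2ak2 was at 12.02 TPM in Control WT rat 1, below the 13.72 to 13.96 TPM of the others. The median deviation of the members from their mean over all rats was 0.0129944 on the log2 scale in Control P1.hMR rat 1, the lowest of its group, with the others between 0.148 and 0.191.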

How the results depend on the processing

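TPM gives no depth, so no value rests on counts, and with 3 to 5 rats a group small differences cannot be shown. The counts of members called lower after UVB (5 in WT and 8 in P1.hMR rats) kept within 1.5 times under most alternatives. A filter at a mean of 5 TPM, which tested fewer members, gave 2 and 4. A fold threshold of 1 on the log2 scale gave 1 and 2, and no fold threshold gave 14 in P1.hMR rats and 1 member called higher in each genotype. With each rat left out, the counts ran from 3 to 6 in WT (3 without Control WT rat 4 and without UVB WT rat 2) and from 6 to 10 in P1.hMR rats, and from 0 to 1 called higher in WT rats. Counts between genotypes and for the interaction were 0 in every fit. With a gap of 3 bases the ISRE count was 3.

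The replicate numbers did not pair the rats: over 22 pairs of the same number, the correlation of deviations from group means ran from -0.19 to 0.24, with 4 over 0.1. A replicate block gave 4 members called lower and 1 called higher in WT rats and 8 called lower in P1.hMR rats.

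No value past an adjusted p of 0.05 changed sign. Under sample weights, uncalled values did so for UVB in P1.hMR rats at Mx1 (-0.0327) and Usp18 (-0.118), for genotype under UVB at Irf7 (-0.0521), Oas1a (-0.198) and Usp18 (-0.182), for genotype without UVB at Rsad2 (0.0267) and Gbp2 (-0.0597), and for the interaction at Tap1 (0.00617) and Psmb8 (0.0128). A pseudocount of 0.1 turned genotype under UVB at Oas1a (-0.0217) and Usp18 (-0.104), the block turned Stat2 (-0.0124) and the interaction at Usp18 (0.00395), and quantile normalization (0.00331) and median-of-ratios scaling (0.0127) turned the interaction at Tap1. The cause was not tested.

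Uncalled values that changed sign with a rat left out are given as ranges. For UVB in WT rats, ranges with each rat left out were -0.259 to 0.0102 at Ifit3, -0.11 to 0.473 at Mx1, -0.139 to 0.361 at Oas1a, -0.77 to 0.0775 at Oasl and -0.276 to 0.0899 at Psmb9. For UVB in P1.hMR rats they were -0.0102 to 0.0722 at Stat2, -0.187 to 0.309 at Mx1, -0.400 to 0.109 at Oas1a and -0.262 to 0.283 at Usp18. For genotype under UVB they were -0.0228 to 0.0674 at Stat2, -0.107 to 0.17 at Irf7, -0.0944 to 0.299 at Ifit3, -0.0783 to 0.546 at Mx1, -0.314 to 0.27 at Oas1a, -0.336 to 0.209 at Usp18, -0.0405 to 0.31 at Gbp2, -0.00447 to 0.112 at Tap1 and -0.146 to 0.29 at Psmb8. For genotype without UVB they were -0.229 to 0.0405 at Rsad2, -0.00111 to 0.157 at Usp18, -0.0719 to 0.37 at Gbp2 and -0.000599 to 0.0996 at Tap1. For the interaction they were -0.246 to 0.0309 at Irf7, -0.386 to 0.238 at Mx1, -0.503 to 0.0805 at Oas1a, -0.399 to 0.146 at Usp18, -0.229 to 0.244 at Gbp2, -0.225 to 0.115 at Cmpk2, -0.0581 to 0.0588 at Tap1 and -0.342 to 0.0936 at Psmb8.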
